A study of Mus musculus with 48 samples.

Results

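The lysosome genes described here are 38 genes that encode acid hydrolases, cathepsins, lysosomal membrane proteins and subunits of the proton pump, with their transcriptional regulator Tfeb, both lysozymes and progranulin. They were chosen by gene symbol from the authors' full table of 48 arrays, taking the probe set that carried only that symbol. Each of the 38 symbols had exactly 1 such probe set, and all 38 passed the filter on low values, among 19938 genes with a single symbol and 15591 genes tested. The members comprise 11 proteases, 8 glycosidases, 5 lipid-handling proteins, 6 membrane proteins, 4 pump subunits, 1 transcription factor, and the group of lysozymes and progranulin with 3. Sgsh, a sulfatase, is counted with the glycosidases throughout.

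The study profiled mononuclear phagocytes sorted from mouse ear skin, either untreated or during daily application of 5% imiquimod cream, a Toll-like receptor 7 agonist used to model psoriasis. The mice were 8 to 11 weeks old and the full course lasted 14 days at 7 mg of imiquimod per ear side. The 16 groups of 3 arrays cover 6 populations, all CD11b-positive by their sort. Dermal monocytes (CD64 low, CCR2+, Ly-6C high, MHCII low) were taken untreated and at day 5, and MHCIIhi dermal macrophages (CD64 high, CCR2 low, Ly-6C low) untreated and at day 11. Monocyte-derived dendritic cells (moDC, CD64 low, CCR2+, Ly-6C high, MHCII+), MHCIIlow dermal macrophages (CD64 high, CCR2 low, Ly-6C low), dermal CD11b dendritic cells (CD11b DC, CD64-, Ly-6C-, MHCII+, CD24-) and epidermal Langerhans cells (MHCII+, CD24+) were taken untreated, at day 5 and at day 11. The labels used here give no strain or genotype. Whether the 3 arrays of a group stem from different animals is not stated there, and a p-value then measures only the spread among these arrays, which may be technical.

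Expression is given on the log2 scale after the authors' RMA normalisation, and a difference of 1 is a 2-fold difference. The number of arrays limits the precision. Array medians ran from 4.10 to 4.37, the correlation between arrays within a group was 0.926 to 0.988, and for 43 of 48 arrays the nearest array belonged to the same group. Some markers set a labelled cell type apart. Cd207 lay between 10.54 and 11.44 in Langerhans cells and at most 8.11 elsewhere. Mertk lay between 6.14 and 8.87 in macrophages and at most 5.95 elsewhere. Itgal lay between 8.81 and 9.59 in monocytes and at most 7.26 elsewhere. Others did not: Cd163 was 9.72 to 10.13 in untreated CD11b DC and 8.26 to 8.89 in day 11 MHCIIhi macrophages. Fcgr1 was 9.3 to 9.32 in day 5 moDC and 8.07 to 8.41 in untreated MHCIIlow macrophages. Ccr2 was 10.12 to 10.66 in untreated moDC, 9.98 to 10.09 in untreated CD11b DC and 9.81 to 10.11 in untreated monocytes. No such marker is given here for moDC or CD11b DC, and untreated monocyte replicates 1 and 2 were nearest to untreated moDC. The sample titles carry a letter that is B for untreated dermal populations, F for day 5 and for untreated Langerhans cells, and G for day 11, with no meaning given. A batch that followed this letter cannot be told apart from treatment and day in the dermal populations, nor from the difference between untreated Langerhans cells and untreated dermal cells. The same holds for day 11 Langerhans cells against their untreated or day 5 cells. Untreated and day 5 Langerhans cells share the letter, while dermal populations change letter at day 5. So such a batch also cannot be told apart from a difference between Langerhans cell and dermal responses. A change in mean expression of a sorted population also cannot be told apart from a change in the share of cells that express the gene.

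Lysosomes are acidic vesicles in which hydrolases break down proteins, glycans and lipids taken up by phagocytosis or delivered by autophagy. A V-type proton pump acidifies them, membrane glycoproteins such as Lamp1 and Lamp2 line them, and in antigen-presenting cells cathepsins and legumain also cut the invariant chain and antigens for loading onto MHC class II. Many lysosomal genes carry an E-box of the CLEAR type in their promoters, to which Tfeb and related factors bind.

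The promoters of 33 of the 38 members could be matched in RefSeq (build GRCm38.p6), as windows from 250 bases before to 50 bases after the transcript start. The letters TCACGTG, searched on both strands and counted once per gene, occurred in 10 of these 33 members (30.3%) and in 1160 of 27025 genes (4.29%), or 1237 of 32851 promoters (3.77%). The shorter core CACGTG, which every TCACGTG contains, occurred in 11 of 33 members (33.3%) and in 8.09% of genes. The members with the longer motif were Atp6v1a, Ctsa, Ctsd, Gaa, Gla, Glb1, Lamp1, Lgmn, Mcoln1 and Sgsh, and Ctsl was added by the core. A match is a description of letters and not a binding site, and for the other members it says only that these letters are not in the window. Stretches of 47 bases are shown for 5 members whose changes differed most in pattern below: Lamp1 and Gla, lower under imiquimod in several populations, Lgmn, which differed widely between populations, and Ctsd and Mcoln1, which were called in no imiquimod comparison. The motif at the position given is in capitals, while another match in the Lamp1 stretch, on the opposite strand, is left in lower case. In the Gla and Ctsd stretches the base after the capitals is a, so an opposite-strand match overlaps them, at 194 and 98 bases before the start. Each stretch reads 5′ to 3′ on the gene's strand, and the first capital lies 62, 195, 50, 99 and 72 bases before the start in the order shown. For Lgmn this start is that of a transcript beginning inside the annotated gene, which reaches to chr12:102439728, so its stretch lies within the gene.
Lamp1, chr8:13159079-13159125, plus strand: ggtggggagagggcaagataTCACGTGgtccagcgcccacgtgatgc
Gla, chrX:134601174-134601220, minus strand: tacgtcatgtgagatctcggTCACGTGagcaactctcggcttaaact
Lgmn, chr12:102439116-102439162, minus strand: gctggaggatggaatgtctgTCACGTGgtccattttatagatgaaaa
Ctsd, chr7:142387900-142387946, minus strand: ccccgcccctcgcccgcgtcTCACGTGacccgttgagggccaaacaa
Mcoln1, chr8:3500427-3500473, plus strand: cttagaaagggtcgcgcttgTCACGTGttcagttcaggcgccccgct

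Across the 16 groups the lysosome genes were high in dermal macrophages and low in Langerhans cells and CD11b DC. The highest group mean lay in a macrophage group for 31 of 38 members, in 17 of them in untreated MHCIIlow macrophages. The lowest lay in Langerhans cells for 26 members and in CD11b DC for 9. The share of all genes with such extremes was not computed. The range of the 16 group means had a median of 2.47 over the members and of 1 over all genes tested, while the median SD within a group was 0.21 and 0.20. Lyz1 had the widest range (8.28), ahead of Lyz2 (5.93), Lgmn (5.49), Ctsl (4.56) and Ctsk (4.37). The narrowest ranges were those of Ctss (0.62), Tfeb (0.64) and Neu1 (1.01).

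**Figure D1:**
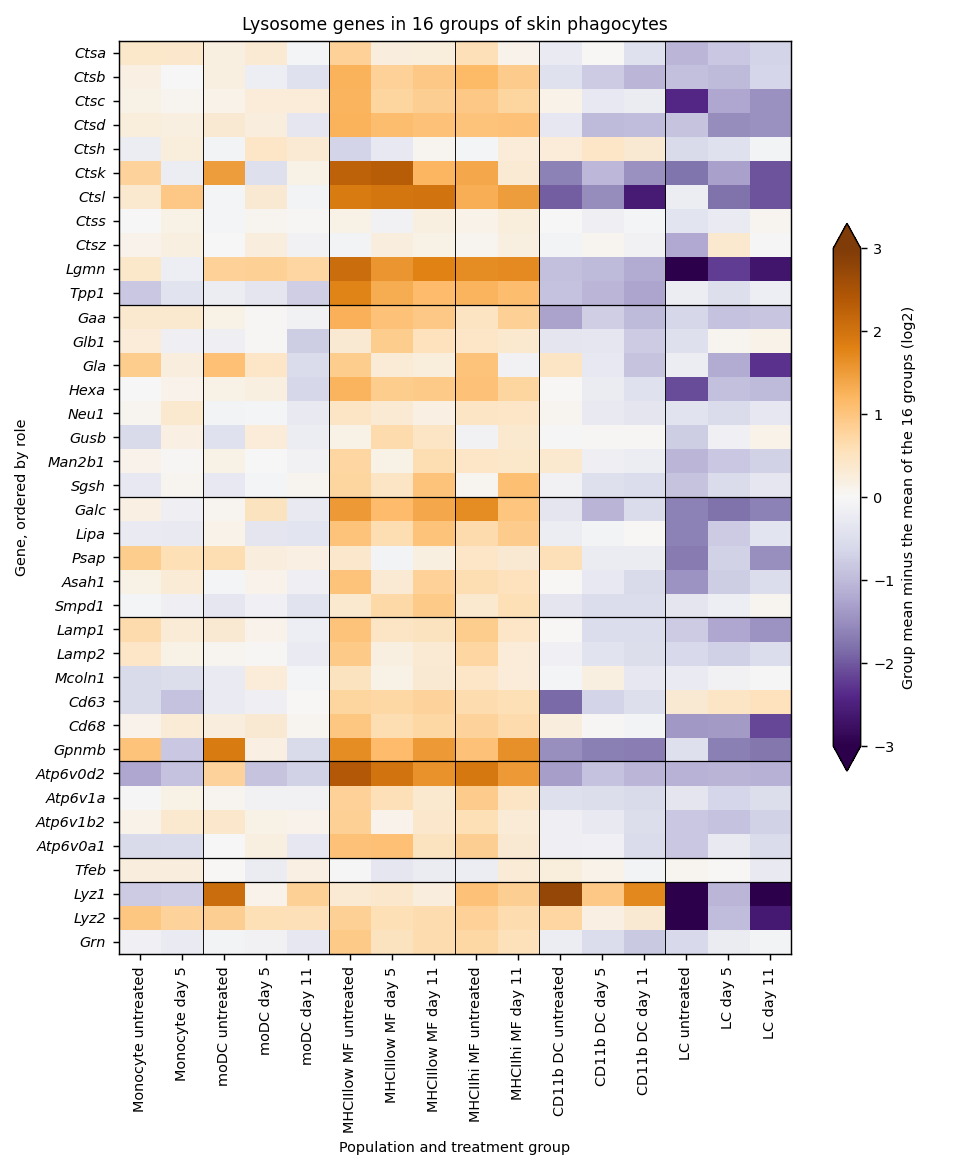
Group mean log2 expression of each of the 38 lysosome genes (rows, ordered by role, with lines between proteases, glycosidases, lipid-handling proteins, membrane proteins, pump subunits, Tfeb, and lysozymes with Grn) minus that gene's mean over the 16 groups (columns, 3 arrays each; MF, macrophage; LC, Langerhans cell). Orange marks groups above the gene's own mean and purple groups below it; macrophage columns are mostly orange, and the right-hand Langerhans cell columns mostly purple, with Cd63 as an exception.

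The members' profiles over the 16 group means resembled one another. These points share arrays and a common normalisation, so the correlations are descriptions. They were not computed for all genes, so whether other genes resemble one another as much is not known. Of 703 pairs of members, 647 correlated above 0, with a median Pearson r of 0.68. With the mean of the other 37 members, 24 members correlated at 0.80 or more, led by Lgmn (0.97), Galc (0.97), Ctsd (0.95) and Hexa (0.95). The lowest of the others were Ctsz (0.46), Cd63 (0.28), Ctsh (-0.01) and Tfeb (-0.17). Nearest profiles were Ctsc for Lgmn (r = 0.96), Gaa for Ctsl (0.96), Psap for Lyz2 (0.92) and Lamp2 for Lamp1 (0.94).

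In untreated skin, MHCIIlow macrophages were set against monocytes, from which part of the dermal macrophages derive. Of the 38 members, 24 were higher in MHCIIlow macrophages and 2 lower, against 10.9% of all genes higher and 7.78% lower. The median difference was 0.87 over the members and -0.04 over all genes. Of 7 mast cell genes 4 were higher as well, and the list mean was 4.39 to 6 on the macrophage arrays and 3.67 to 4.83 on those of monocytes, while 7 of 14 fibroblast genes were lower. The part of these cells was not tested. All 4 pump subunits, 5 of 6 membrane proteins, 7 of 11 proteases, 4 of 8 glycosidases and 3 of 5 lipid-handling proteins were higher.

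Atp6v0d2 is a subunit of the pump's membrane sector found in macrophages and osteoclasts. Its arrays read 3.58, 3.61 and 3.77 in monocytes and 7.03, 8.02 and 6.72 in MHCIIlow macrophages, without overlap (difference 3.60 ± 0.50 SE, n = 3 against 3, limma, adjusted p = 9.25e-07). The monocyte arrays lay at or below the low-value filter of 3.77, so their level is only a bound, and against that filter value Atp6v0d2 was at least 11.2-fold higher in the macrophages. Tpp1, a tripeptidyl peptidase, read 7.36, 7.75 and 7.30 against 10.21, 9.95 and 10.05 (2.60 ± 0.30, adjusted p = 1.94e-08). Lgmn, the asparagine-specific protease legumain, read 10.15, 10.11 and 10.23 against 11.82, 11.83 and 11.80 (1.66 ± 0.28, adjusted p = 3.39e-05). For these 3 genes every macrophage array lay above every monocyte array. Atp6v0a1, another pump subunit, was higher by 1.62 ± 0.22, Ctsl by 1.51 ± 0.25 and Galc, which cleaves galactosylceramide, by 1.35 ± 0.37. The lower members were Psap (-0.50 ± 0.12, adjusted p = 0.00294), the precursor of the saposins that present lipids to hydrolases, and Ctsh (-0.47 ± 0.16, adjusted p = 0.0399), an aminopeptidase. Ctsk was not called (1.44 ± 0.64, adjusted p = 0.12). Its monocyte arrays read 4.75, 9.39 and 6.58, and the replicate at 9.39 also carried the highest mean of 14 fibroblast genes (10.15, against 6.67 and 7.49), whose part in that value was not tested. The Ctsh call ended without monocyte replicate 1 or 2 or MHCIIlow replicate 1 or 2 (-0.36 to -0.47, adjusted p = 0.0696 to 0.188). With each array centred on its median, 26 members were higher and 0 lower, and in a fit of these groups alone 16 were called.

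moDC and monocytes in untreated skin differed in few members. Lyz1, a lysozyme that cleaves bacterial cell walls, and Atp6v0d2 were higher in moDC, 2 of 38 against 2.16% of all genes, and 0 were lower against 1.27% (limma; at an unadjusted p under 0.05, 4 higher and 3 lower). Lyz1 read 9.23, 8.31 and 10.23 in monocytes and 12.35, 11.94 and 12.02 in moDC (2.85 ± 0.41, adjusted p = 1.06e-05). Atp6v0d2 read 6.80, 6.59 and 3.60 in moDC (2.01 ± 0.50, adjusted p = 0.0139). The third of these arrays lay within the monocyte range of 3.58 to 3.77 and below the filter value. The mean of the moDC arrays lay 3.71-fold above the filter value, carried by the first 2 arrays. Leaving out moDC replicate 1 or 2 ended the Atp6v0d2 call (limma, 1.44, adjusted p = 0.179, and 1.55, adjusted p = 0.119). Without moDC replicate 2, 1 member was called, and a fit of the pair of groups alone called 0 members. Without moDC replicate 1, 1 member was higher and 2 were lower. Without monocyte replicate 2, 3 members were higher and 0 lower. Lyz1 and Lyz2 are neighbouring paralogs of nearly the same sequence, and their probe sets may each read RNA of both genes, so the level of either is uncertain throughout.

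MHCIIhi and MHCIIlow macrophages of untreated skin could not be separated by these genes. limma called 0 of 38 members higher and 0 lower, against 0.552% and 0.346% of all genes, and at an unadjusted p under 0.05 1 was higher and 3 lower. Ctsh had the smallest adjusted p, with 9.49, 9.65 and 8.95 in MHCIIhi and 8.58, 8.71 and 8.99 in MHCIIlow macrophages (0.60 ± 0.16, adjusted p = 0.067), and the groups overlapped by 1 array. Leaving out replicate 4 of either group gave 1 called member.

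CD11b DC of untreated skin had lower levels of most members than MHCIIlow macrophages. Of 38 members 24 were lower and 2 higher, against 7.37% and 6.22% of all genes, and the median difference was -1.04 (0.03 over all genes). Among the lower members were 4 of 4 pump subunits, 5 of 6 membrane proteins and 8 of 11 proteases. Of 7 mast cell genes 5 were lower too (list mean 3.78 to 4.00 in CD11b DC), as were 3 of 4 macrophage markers, and the part of mast cells was not tested. Ctsk, a collagen-degrading cathepsin, read 4.50, 4.20 and 4.73 in CD11b DC and 8.31, 8.01 and 8.71 in macrophages (-3.87 ± 0.64, adjusted p = 1.98e-05). Ctsl, a broad endopeptidase, read 6.37, 6.49 and 6.91 against 10.71, 10.13 and 10.46 (-3.84 ± 0.25, adjusted p = 8.68e-15). Atp6v0d2 read 3.35, 3.51 and 3.77 in CD11b DC, at or below the filter value, and was at least 11.2-fold lower there (-3.71 ± 0.50, adjusted p = 5.15e-07). No array of these 3 genes overlapped between the populations. Gpnmb, a membrane glycoprotein of phagocytes, differed by -3.16 ± 0.47, Lgmn by -3.00 ± 0.28 and Tpp1 by -2.67 ± 0.30. Higher were Ctsh, at 9.66, 9.78 and 9.67 (0.94 ± 0.16, adjusted p = 3.74e-05), and Lyz1, at 13.07, 12.59 and 12.66 against 10.41, 10.36 and 10.26 (2.43 ± 0.41, adjusted p = 2.64e-05).

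Untreated Langerhans cells had lower levels of most members than MHCIIlow macrophages. In all, 33 of 38 members were lower and 0 higher, against 13.7% and 13.2% of all genes; at an unadjusted p under 0.05 limma gave 35 lower and 0 higher. The median difference was -1.88 (0 over all genes). The members not called were Ctsh, Glb1, Smpd1, Cd63 and Tfeb. Lyz1 read 3.78, 4.72 and 4.97 in Langerhans cells (-5.85 ± 0.41, adjusted p = 2.25e-14). Lyz2, the lysozyme of macrophages, read 6.39, 7.76 and 7.13 against 12.93, 12.88 and 12.86 (-5.80 ± 0.34, adjusted p = 1.66e-16). Lgmn read 7.07, 6.55 and 5.36 against 11.82, 11.83 and 11.80 (-5.49 ± 0.28, adjusted p = 4.41e-18). Every Langerhans cell array lay below every macrophage array for these genes. Ctsk differed by -4.00 ± 0.64, Ctsc, which activates granule proteases, by -3.66 ± 0.16, and Atp6v0d2 by -3.46 ± 0.50. Atp6v0d2 read 3.53, 4.07 and 3.78 in Langerhans cells, near the filter value of 3.77, so the size of its difference is uncertain. The mean of 23 keratinocyte genes was 9.08 to 9.51 on the untreated Langerhans cell arrays and 6.17 to 6.76 on those of MHCIIlow macrophages, and 6 of 7 mast cell genes were lower in Langerhans cells (list mean 3.63 to 3.75). Their part in these differences was not tested. Cd63, a tetraspanin of late endosomes, stood apart from the pattern, at 11.36, 11.05 and 11.20 in Langerhans cells and 11.67, 11.60 and 11.60 in macrophages (-0.42 ± 0.18, adjusted p = 0.0714).

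**Figure D2:**
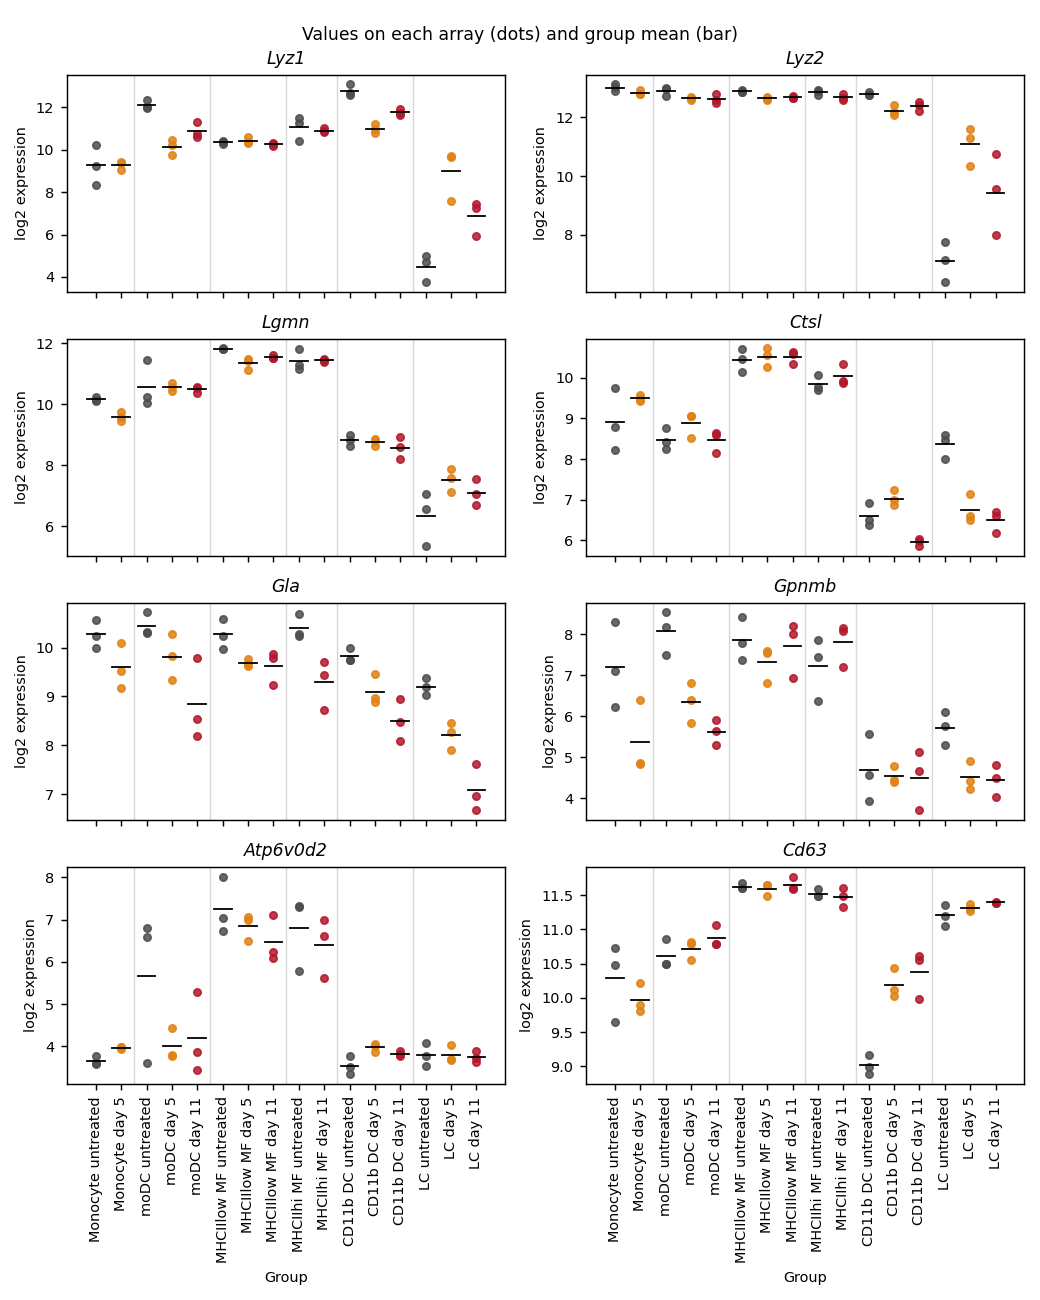
Log2 expression (vertical axis) of 8 lysosome genes on every array (dots) of the 16 groups (horizontal axis; grey, untreated; orange, day 5; dark red, day 11), with a bar at each group mean. Lyz1 and Lyz2 rise in Langerhans cells from means of 4.49 and 7.09, Gla has lower means under imiquimod in each population, and the third untreated moDC array lacks the Atp6v0d2 level of the other two.

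Under imiquimod most called members fell in the dermal populations, and most called members rose in Langerhans cells. Within a day the comparisons use separate arrays, and day 5 and day 11 of a population share their untreated arrays. In the 8 dermal comparisons 0 or 1 of the 38 members rose and 2 to 7 fell, against 2.58% to 7.45% and 4.96% to 7.49% of all genes. In Langerhans cells 7 rose and 3 fell at day 5, against 8.64% and 7.49% of all genes. At day 11 there 12 rose and 4 fell, against 9.31% and 8.4%. Some of these counts, such as the 2 falls in monocytes and the 3 in Langerhans cells, lay near the share of all genes. Of the 38 members 28 were called in at least 1 of the 10 comparisons, as were 48% of all genes tested. The 10 that were not are Galc, Tpp1, Ctsd, Gaa, Atp6v0a1, Glb1, Smpd1, Mcoln1, Neu1 and Tfeb.

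**Figure D3:**
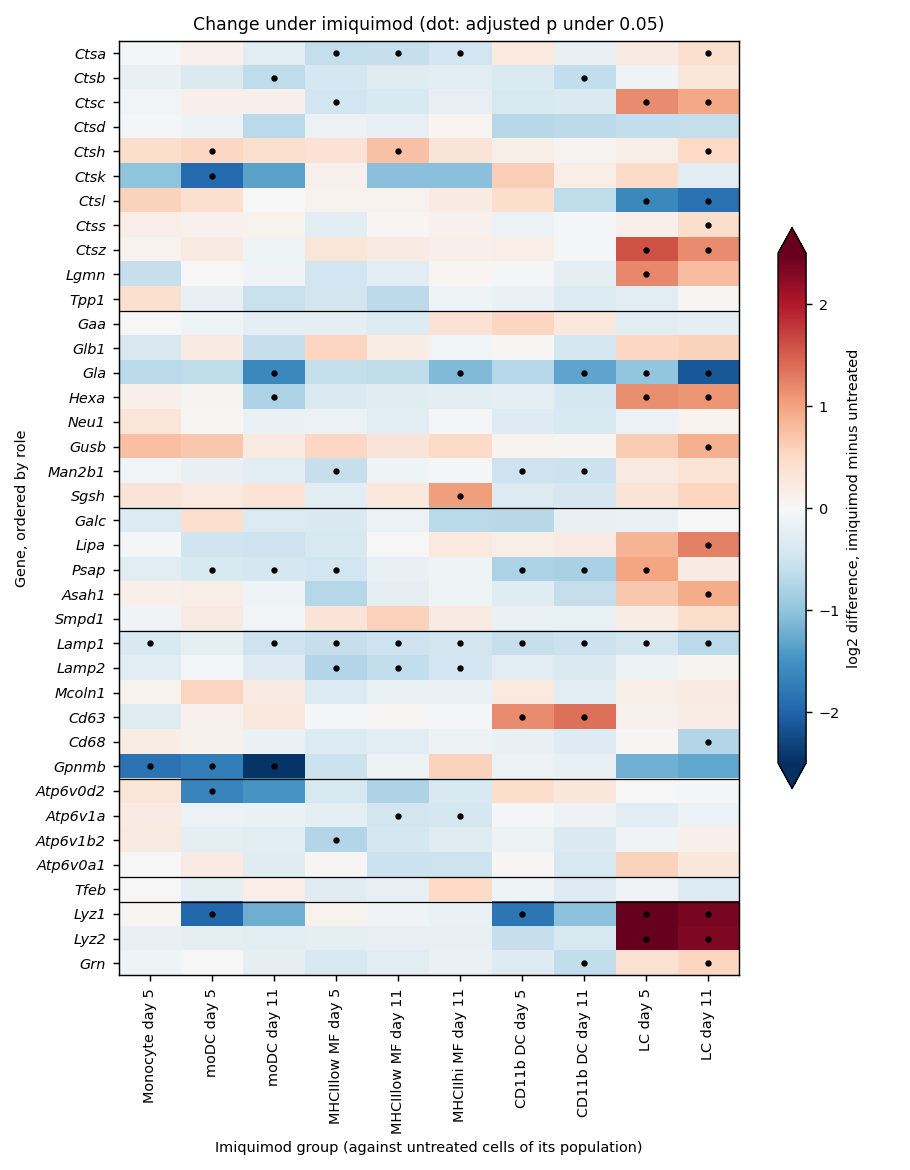
Log2 difference between each imiquimod group and the untreated cells of its population (columns, 3 arrays against 3) for the 38 lysosome genes (rows, ordered by role); a dot marks a limma adjusted p under 0.05, and differences past the ends of the colour scale (Lyz1 and Lyz2 in Langerhans cells at day 5) take its end colour (MF, macrophage; LC, Langerhans cell). Lamp1 carries a dot in every column but moDC day 5, and in the Langerhans cell columns Lyz1, Lyz2, Ctsc and Ctsz carry dots for rises at both days.

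Lamp1, the most abundant glycoprotein of the lysosomal membrane, fell in 4 of the 5 populations at day 5 and in 5 of 5 at day 11. In moDC at day 5, where it was not called, the difference was -0.22. The falls ran from -0.38 in monocytes to -0.57 in MHCIIlow macrophages and CD11b DC at day 5, and from -0.46 in MHCIIhi macrophages to -0.67 in Langerhans cells at day 11. In MHCIIlow macrophages it read 11.87, 11.54 and 11.80 untreated, 11.24, 11.29 and 10.97 at day 5 (adjusted p = 0.00117), and 11.26, 11.20 and 11.20 at day 11 (adjusted p = 0.00431). In Langerhans cells it read 9.96, 10.07 and 9.78 untreated, 9.58, 9.46 and 9.42 at day 5 (adjusted p = 0.00711), and 9.17, 9.33 and 9.30 at day 11 (-0.67 ± 0.12, adjusted p = 8.05e-05). All treated arrays lay below all untreated ones in both populations. The monocyte call ended without any 1 of its 6 arrays (adjusted p = 0.0628 to 0.0941), the moDC day 11 call without untreated replicate 1 (-0.35, adjusted p = 0.0854), the MHCIIhi call without day 11 replicate 2 (-0.38, adjusted p = 0.069) and the Langerhans cell day 5 call without untreated replicate 2 (-0.39, adjusted p = 0.0571).

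Gla, the alpha-galactosidase that is deficient in Fabry disease, fell in 1 of 5 populations at day 5 and in 4 of 5 at day 11. Its difference was below 0 in each of the 10 comparisons, from -0.59 to -0.98 at day 5 and from -0.64 to -2.11 at day 11. Langerhans cells read 9.03, 9.37 and 9.19 untreated, 7.91, 8.28 and 8.46 at day 5 (-0.98 ± 0.31, adjusted p = 0.0229) and 6.96, 6.68 and 7.61 at day 11 (-2.11 ± 0.31, adjusted p = 2.40e-06). The 3 groups did not overlap, and day 11 lay below day 5 by -1.13 ± 0.31 (adjusted p = 0.0395). Leaving out untreated replicate 2 or 3, or day 5 replicate 2 or 3, ended the day 5 call (-0.83 to -1.01, adjusted p = 0.0514 to 0.127), and the call between the days ended without any day 5 array or without day 11 replicate 1 or 2 (-0.93 to -1.28, adjusted p = 0.0535 to 0.284). The day 11 call against untreated cells held without any single array.

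In monocytes at day 5, 2 of 38 members fell and 0 rose, against 6.31% and 6.43% of all genes (limma; at an unadjusted p under 0.05, 4 fell and 3 rose). The median difference was -0.01. Gpnmb fell by 1.84 (SE 0.47, adjusted p = 0.00838), from 6.22, 8.29 and 7.11 to 6.39, 4.83 and 4.87, so the groups overlapped. Without untreated replicate 2, which carried the fibroblast genes noted above, the difference was -1.30 (adjusted p = 0.0923). The count was 0 without day 5 replicate 3 or 4, and 1 fall without day 5 replicate 2 or untreated replicate 4. Without untreated replicate 2 it was 1 rise and 0 falls, so neither of the 2 falls stayed called. Without untreated replicate 1 it was 3 falls and 2 rises, with 1 of the 2 falls among them. A fit of these groups alone called 0.

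In moDC at day 5, 5 members fell and Ctsh rose, against 5.61% and 5.68% of all genes, with a median of 0. Lyz1 fell from 12.35, 11.94 and 12.02 to 10.23, 9.76 and 10.44 (-1.96 ± 0.41, adjusted p = 0.00171), without overlap. Ctsk went from 7.63, 8.63 and 6.53 to 6.35, 5.85 and 4.73 (-1.95 ± 0.64, adjusted p = 0.0417). Gpnmb went from 8.18, 8.53 and 7.49 to 5.84, 6.39 and 6.80 (-1.72 ± 0.47, adjusted p = 0.0156). The treated arrays of these 3 genes all lay below the untreated ones. Over the same arrays the mean of 14 fibroblast genes went from 8.17, 8.44 and 8.21 to 7.27, 7.28 and 5.96, and its part was not tested. Atp6v0d2 fell by 1.66 (SE 0.50, adjusted p = 0.026) from the 3 values given above to 3.77, 4.43 and 3.80, and Psap by 0.39 (SE 0.12, adjusted p = 0.0318). Ctsh rose from 9.63, 9.03 and 9.35 to 9.78, 9.98 and 9.77 (0.51 ± 0.16, adjusted p = 0.0365). Lyz1 was the only one of the 6 that stayed called without any single array. The count was 2 without untreated replicate 2 or day 5 replicate 2 or 4, 3 without untreated replicate 1 or day 5 replicate 3, and 2 in a fit of these groups alone.

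In moDC at day 11, 6 members fell and 0 rose, against 5.84% and 2.58% of all genes, and the median was -0.26 (-0.01 over all genes; at an unadjusted p under 0.05 limma gave 12 falls and 1 rise). Gpnmb read 5.90, 5.63 and 5.29 (-2.46 ± 0.47 from untreated, adjusted p = 0.000886). Gla read 8.19, 9.79 and 8.54 against 10.32, 10.72 and 10.30 (-1.61 ± 0.31, adjusted p = 0.000844). Hexa, the alpha subunit of beta-hexosaminidase, fell from 10.07, 9.86 and 9.52 to 9.04, 8.54 and 9.53 (-0.78 ± 0.22, adjusted p = 0.0202), with an overlap of 1 array. Ctsb, an abundant cysteine cathepsin, fell from 11.40, 10.76 and 10.68 to 10.59, 10.12 and 10.24 (-0.63 ± 0.17, adjusted p = 0.0143). Lamp1 fell by 0.51 and Psap by 0.43. The fibroblast gene mean was 6.65, 6.45 and 7.08 on these arrays. Gpnmb and Gla stayed called without any single array, untreated replicate 1 reduced the count to 2 when left out, and a fit of these groups alone called 1.

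In MHCIIlow macrophages at day 5, 7 of 38 members fell and 0 rose, against 6.95% and 7.22% of all genes, and the median was -0.34 (-0.02 over all genes; at an unadjusted p under 0.05 limma gave 12 falls and 1 rise). They comprised 2 proteases, 1 glycosidase, 1 lipid-handling protein, 2 membrane proteins and 1 pump subunit. Lamp2, which also serves chaperone-mediated autophagy, fell from 10.99, 10.80 and 10.92 to 10.20, 10.13 and 10.18 (-0.73 ± 0.14, adjusted p = 0.000392). Atp6v1b2, of the pump's ATP-hydrolysing sector, fell from 9.74, 10.17 and 10.16 to 9.24, 9.46 and 9.17 (-0.73 ± 0.24, adjusted p = 0.0344). Ctsa, which shields beta-galactosidase and neuraminidase from degradation, fell from 11.63, 11.44 and 11.56 to 11.04, 10.96 and 10.81 (-0.60 ± 0.13, adjusted p = 0.00121). None of these groups overlapped. Man2b1, an alpha-mannosidase, fell by 0.58, Lamp1 by 0.57, Ctsc by 0.48 and Psap by 0.47. Markers of other cells also fell on these arrays: 4 of 7 mast cell genes (mean of the list's 10 genes 4.39 to 6 untreated, 4.10 to 4.46 at day 5), 7 of 23 keratinocyte genes (6.17 to 6.76, then 5.64 to 5.97), 3 of 3 moDC markers (8.64 to 9.25, then 7.11 to 7.24) and 2 of 14 fibroblast genes (6.14 to 6.70, then 5.27 to 5.68). Their part in the falls was not tested. Leaving out day 5 replicate 4 left 4 members called, and the calls of Atp6v1b2 and Ctsc ended when single arrays were left out (adjusted p = 0.0859 to 0.142), untreated replicate 4 among them for both.

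At day 11 in MHCIIlow macrophages 4 members fell and Ctsh rose, against 5.39% and 4.33% of all genes, with a median of -0.21. Lamp2 read 10.34, 10.29 and 10.24 (-0.61 ± 0.14, adjusted p = 0.00371) and Ctsa 10.98, 10.91 and 10.98 (-0.58 ± 0.13, adjusted p = 0.00239). Lamp1 fell by 0.52 and Atp6v1a, which binds the pump's ATP, by 0.45 (adjusted p = 0.0467). Ctsh rose from 8.58, 8.71 and 8.99 to 9.47, 9.43 and 9.56 (0.73 ± 0.16, adjusted p = 0.00261). The treated arrays lay outside the untreated range for Lamp2, Ctsa and Ctsh. Between day 11 and day 5 limma called 0 members higher and 0 lower (0.0834% and 0.398% of all genes), and at an unadjusted p under 0.05 5 were higher and 1 lower. Array weights gave 3 called members for that comparison, and the Atp6v1a call at day 11 ended without any 1 array except untreated replicate 2 (-0.34 to -0.51, adjusted p = 0.0533 to 0.236).

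In MHCIIhi macrophages at day 11, 5 members fell and Sgsh rose, against 7.49% and 7.45% of all genes, with a median of -0.11. Sgsh, the heparan N-sulfatase, rose from 6.15, 6.14 and 6.45 to 7.10, 7.32 and 7.45 (1.04 ± 0.23, adjusted p = 0.00157). Gla fell from 10.68, 10.24 and 10.28 to 8.73, 9.70 and 9.44 (-1.11 ± 0.31, adjusted p = 0.0116). Ctsa fell from 11.56, 11.17 and 11.18 to 10.93, 10.72 and 10.85 (-0.47 ± 0.13, adjusted p = 0.0107). The 3 genes did not overlap between the groups. Lamp2 fell by 0.47 from 10.83, 10.51 and 10.79 to 10.42, 10.17 and 10.14, Lamp1 by 0.46 and Atp6v1a by 0.43. The mean of 23 keratinocyte genes was 6.04 to 7.03 untreated and 7.04 to 7.71 at day 11 on these arrays, and 10 of the 23 rose, while 2 of 3 moDC markers fell; their part was not tested. Sgsh alone stayed called without any single array, and Gla differed by -0.97 without untreated replicate 1 (adjusted p = 0.0554) and by -0.83 without day 11 replicate 1 (adjusted p = 0.101). Only 2 members were called without untreated replicate 1 or day 11 replicate 2, 3 falls were left without untreated replicate 4 or day 11 replicate 3, median-centring left 2 members and a fit of these groups alone 1.

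In CD11b DC at day 5, 4 members fell and Cd63 rose, against 4.96% and 3.01% of all genes, with a median of -0.15 (-0.04 over all genes). Cd63 rose from 8.99, 9.16 and 8.89 to 10.02, 10.44 and 10.12 (1.18 ± 0.18, adjusted p = 1.48e-05). Lyz1 fell from 13.07, 12.59 and 12.66 to 10.78, 10.95 and 11.20 (-1.80 ± 0.41, adjusted p = 0.00394). Psap fell from 11.76, 11.56 and 11.60 to 10.81, 10.86 and 10.90 (-0.79 ± 0.12, adjusted p = 3.31e-05). No array overlapped for these genes, and Lamp1 (-0.57) and Man2b1 (-0.52) also fell. The Man2b1 call ended without untreated replicate 1 or 4 or day 5 replicate 2 or 4 (-0.47 to -0.49, adjusted p = 0.0767 to 0.0936), and a fit of these groups alone called 3 members. Over the same arrays 2 of 4 macrophage markers fell and 1 rose. Cd163 went from 10.13, 9.72 and 9.81 to 7.53, 7.37 and 7.59. Adgre1 went from 9.43, 9.36 and 9.56 to 8.51, 8.60 and 8.58. Fcgr1 went the other way, from 5.37, 5.74 and 6.18 to 6.51, 7.17 and 7.36. Of 23 keratinocyte genes 8 fell, and the part of all these cells was not tested. Cd63 was high in Langerhans cells (11.05 to 11.40 on all 9 arrays), and the mean of 4 Langerhans cell markers went from 5.64 to 6.01 on untreated CD11b DC arrays to 8.21 to 8.32 at day 5. Of these markers Epcam read 4.31, 4.41 and 4.60 untreated and 7.04, 7.07 and 7.07 at day 5, and Cd207 5.06, 4.94 and 6.32 and then 6.38, 6.42 and 6.49; their part in the rise of Cd63 was not tested.

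At day 11 in CD11b DC 6 members fell and Cd63 rose, against 6.79% and 3.55% of all genes, with a median of -0.36 (-0.02 over all genes). Cd63 read 10.55, 10.61 and 9.98 (1.37 ± 0.18, adjusted p = 1.47e-06). The array at 10.61, replicate 2, had the lowest Mfge8 (6.95, against 10.49 and 8.76) and Cd207 (4.85, against 8.11 and 6.03) of the group. It was also lowest for Cdh1 (7.84, against 9.64 and 8.74) and Epcam (7.18, against 7.73 and 7.25). Untreated CD11b DC read 5.88 to 6.85 for Mfge8, 4.94 to 6.32 for Cd207, 6.66 to 7.38 for Cdh1 and 4.31 to 4.60 for Epcam. The part of Langerhans cells in the day 11 rise of Cd63 was not tested. Gla fell from 9.74, 9.75 and 9.99 to 8.09, 8.48 and 8.94 (-1.32 ± 0.31, adjusted p = 0.00378), and Psap to 10.95, 10.49 and 11.04 (-0.81 ± 0.12, adjusted p = 2.13e-05). Neither overlapped the untreated arrays. Ctsb fell by 0.62 to 9.88, 9.17 and 10.08, and Grn, the precursor of granulins, fell by 0.62 to 11.21, 10.08 and 11.21. Replicate 2 held the lowest value of both, and without it Ctsb differed by -0.35 (adjusted p = 0.252) and Grn by -0.24 (adjusted p = 0.454). Man2b1 and Lamp1 each fell by 0.54, and without that replicate Man2b1 differed by -0.38 (adjusted p = 0.187). The count was 4 without this replicate or without untreated replicate 1, 10 without day 11 replicate 3, and 1 in a fit of these groups alone. Between day 11 and day 5, 1 member was lower and 0 higher, against 0.706% and 0.257% of all genes: Ctsl went from 6.99, 6.87 and 7.23 to 6.03, 5.99 and 5.87 (-1.07 ± 0.25, adjusted p = 0.0203), a call that ended without day 5 replicate 2 or 4 or day 11 replicate 2 (-0.97 to -1.09) and in a fit of these groups alone.

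In Langerhans cells at day 5, 7 of 38 members rose and 3 fell, against 8.64% and 7.49% of all genes, and the median was 0.15 (0.02 over all genes). The rises comprised both lysozymes, 3 proteases, 1 glycosidase and 1 lipid-handling protein, and 0 of the 4 pump subunits were called. Lyz1 went from 3.78, 4.72 and 4.97 to 9.72, 9.67 and 7.57 (4.50 ± 0.41, 22.5-fold, adjusted p = 8.95e-11). Lyz2 went from 6.39, 7.76 and 7.13 to 11.59, 11.29 and 10.35 (3.98 ± 0.34, 15.8-fold, adjusted p = 1.79e-11). All treated arrays lay above all untreated ones, and below the 12.07 to 13.13 at which every dermal array read Lyz2. Ctsz, a carboxypeptidase, rose from 8.78, 9.10 and 8.70 to 10.38, 10.59 and 10.38 (1.59 ± 0.16, adjusted p = 7.47e-10), its highest group mean of the 16. Lgmn went from 7.07, 6.55 and 5.36 to 7.87, 7.59 and 7.13 (1.20 ± 0.28, adjusted p = 0.00201), and without untreated replicate 3 the difference was 0.72 (adjusted p = 0.0681). Ctsc rose from 7.78, 8.20 and 7.92 to 9.47, 9.09 and 8.90 (1.18 ± 0.16, adjusted p = 7.37e-07), Hexa from 7.63, 7.35 and 7.75 to 9.04, 8.48 and 8.73 (1.17 ± 0.22, adjusted p = 0.00011) and Psap from 9.53, 9.28 and 9.31 to 10.52, 10.39 and 10.18 (0.99 ± 0.12, adjusted p = 8.74e-08). None of these groups overlapped.

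Beside Gla and Lamp1, Ctsl fell in Langerhans cells at both days, from 8.60, 8.48 and 8.01 to 7.14, 6.61 and 6.50 at day 5 (-1.61 ± 0.25, adjusted p = 4.30e-06) and 6.18, 6.70 and 6.60 at day 11 (-1.87 ± 0.25, adjusted p = 3.36e-07). Treated and untreated arrays did not overlap. Ctsl cuts the invariant chain in thymic epithelium, and Ctss takes that role in dendritic cells. Ctss read 11.22, 11.18 and 11.23 untreated, 11.39, 11.30 and 11.33 at day 5, and 11.70, 11.55 and 11.69 at day 11, where it rose by 0.44 (SE 0.10, adjusted p = 0.00192). Over all 48 arrays Ctss lay between 11.18 and 11.96. Ctsb read 9.71, 9.85 and 9.94 untreated, 9.96, 9.51 and 9.79 at day 5, and 10.14, 10.17 and 10.05 at day 11, and was not called at either day. Ctsd, an aspartic protease, read 9.13, 9.21 and 9.24 untreated, 8.93, 8.70 and 8.08 at day 5, and 8.29, 9.14 and 8.39 at day 11, where the difference was -0.59 ± 0.23 (adjusted p = 0.0829).

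At day 11 in Langerhans cells 12 members rose and 4 fell, against 9.31% and 8.4% of all genes, and the median was 0.26 (0.03 over all genes). Lyz1 read 5.91, 7.46 and 7.25 (2.38 ± 0.41, adjusted p = 3.47e-05) and Lyz2 7.98, 10.75 and 9.56 (2.34 ± 0.34, adjusted p = 2.19e-06). Lipa, the acid lipase that hydrolyses cholesteryl esters, rose from 7.27, 5.95 and 6.90 to 7.91, 7.83 and 8.15 (1.26 ± 0.32, adjusted p = 0.00443), and without untreated replicate 2 it differed by 0.88 (adjusted p = 0.0848). Every day 11 array of these 3 genes lay above the untreated arrays. Ctsz read 10.21, 9.99 and 9.92 (1.18 ± 0.16), Hexa 8.32, 8.82 and 8.91 (1.11 ± 0.22) and Ctsc 8.74, 9.07 and 8.98 (0.96 ± 0.16). Without untreated replicate 2 or day 11 replicate 3 the rises numbered 7. The other rises were those of Asah1, Gusb, Grn, Ctsh, Ctss and Ctsa, of 0.40 to 0.93. Beside Gla, Ctsl and Lamp1, Cd68, a macrophage glycoprotein, fell from 10.04, 9.56 and 10.19 to 8.95, 9.38 and 9.23 (-0.74 ± 0.14, adjusted p = 0.000194).

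Between day 11 and day 5 in Langerhans cells 5 members were lower and 0 higher, against 1.54% and 0.577% of all genes (limma; at an unadjusted p under 0.05, 6 lower and 3 higher). They were Lyz1 (-2.11 ± 0.41, adjusted p = 0.00176), Lyz2 (-1.65 ± 0.34, adjusted p = 0.00323), Gla, Psap (-0.78 ± 0.12, adjusted p = 0.000116) and Cd68 (-0.78 ± 0.14, adjusted p = 0.00101). Psap read 9.39, 9.82 and 9.55 at day 11, overlapping its untreated arrays. Without day 11 replicate 1 the Lyz2 difference was -0.92 (adjusted p = 0.0605) and without day 5 replicate 2 it was -1.39 (adjusted p = 0.0524). The count was 3 without either of these arrays, and a fit of these groups alone called 0.

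Markers of other cells moved over the same Langerhans cell arrays. Ccr2, a receptor of monocytes that Langerhans cells lack at rest, read 3.68, 3.36 and 3.36 untreated, 8.09, 7.30 and 6.32 at day 5, and 4.16, 6.62 and 5.70 at day 11. Untreated CD11b DC also carried it, at 9.98 to 10.09. Of the macrophage markers, Cd163 read 3.54, 2.93 and 3.76, then 5.97, 5.44 and 3.90, then 3.29, 4.20 and 3.37, while Mertk stayed between 3.52 and 3.79 on all 9 arrays, near the filter value of 3.77. Fcgr1 read 3.92, 4.00 and 4.15, then 6.20, 5.60 and 4.79, then 4.54, 4.38 and 3.73. Adgre1 went the other way, from 9.02, 8.89 and 8.99 to 8.09, 8.12 and 8.48 and to 8.08, 8.30 and 8.45, so that of 4 macrophage markers 2 rose and 1 fell at day 5, and 0 rose and 1 fell at day 11. Of 4 markers of conventional dendritic cells 3 rose at both days. Among them Flt3 read 6.04, 5.84 and 6.19, then 8.46, 8.56 and 8.25, then 8.29, 8.25 and 8.12, and Kmo read 3.99, 3.64 and 3.98, then 6.58, 6.41 and 5.13, then 5.34, 6.27 and 5.41. Of 14 fibroblast genes 4 rose at day 5 and 2 at day 11 (list mean 5.09 to 5.45 untreated, 5.58 to 6.57 at day 5). At each treated day the array with the lowest Lyz2 also had the lowest Ccr2. The mean of 23 keratinocyte genes was 9.51, 9.30 and 9.08 untreated, 7.89, 7.01 and 7.18 at day 5, and 7.29, 7.78 and 7.49 at day 11. The part of these cells in the changes of Lyz1, Lyz2 and the other members was not tested.

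**Figure D4:**
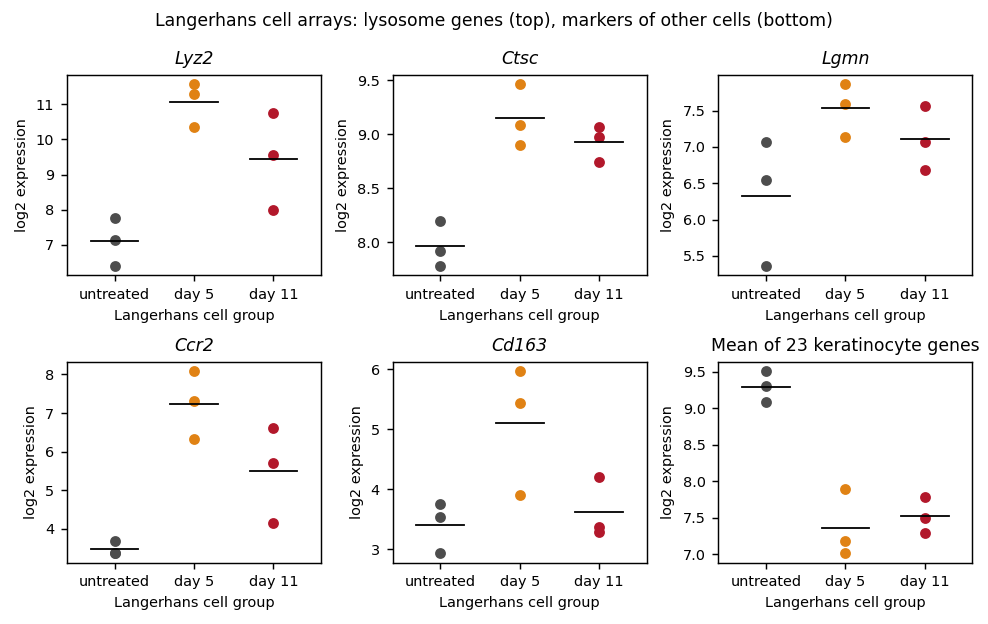
Log2 expression (vertical axes) on each of the 9 Langerhans cell arrays (dots, with bars at means of 3) for Lyz2, Ctsc and Lgmn (top). The bottom row shows Ccr2, Cd163 and the mean of 23 keratinocyte genes. Ccr2 and Cd163 were also high in untreated CD11b DC. Lyz2 and Ccr2 are highest at day 5 and spread most at day 11, and the keratinocyte mean is lower on all treated arrays.

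The difference between the Langerhans cell response and that of MHCIIlow macrophages was tested directly. At day 5 it was above 0 for 11 members and below 0 for Ctsl, against 4.66% and 4.25% of all genes, with a median of 0.39 (0.03 over all genes). At day 11 it was above 0 for 9 members and below 0 for Ctsl and Gla, against 4.01% and 3.92% of all genes, with a median of 0.43. The largest differences above 0, at day 5, were those of Lyz1 (4.42 ± 0.58, adjusted p = 8.53e-07), Lyz2 (4.22 ± 0.48, adjusted p = 4.84e-08), Lgmn (1.68 ± 0.40), Ctsc (1.66 ± 0.23), Hexa (1.54 ± 0.31) and Psap (1.47 ± 0.17, adjusted p = 1.11e-07), and Ctsl differed by -1.69 ± 0.35. At day 5 Psap and Ctsc rose in Langerhans cells and fell in MHCIIlow macrophages. The difference for Lamp1 was 0.12 ± 0.17 at day 5 (adjusted p = 0.795) and -0.15 ± 0.17 at day 11 (adjusted p = 0.729). The day 11 count was 7 without MHCIIlow day 11 replicate 2 or 3 or Langerhans cell day 11 replicate 2, and the call for Gla, at -1.47 ± 0.44 (adjusted p = 0.0291), ended when either of these Langerhans cell or MHCIIlow arrays, among others, was left out (-1.27 to -1.46). The day 11 call for Asah1 (1.15, adjusted p = 0.0393) ended without any 1 of most of the arrays compared (1.02 to 1.22, adjusted p = 0.0507 to 0.116). These comparisons share their untreated arrays with the ones above, and the title letter changes differently in the populations compared.

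**Figure D5:**
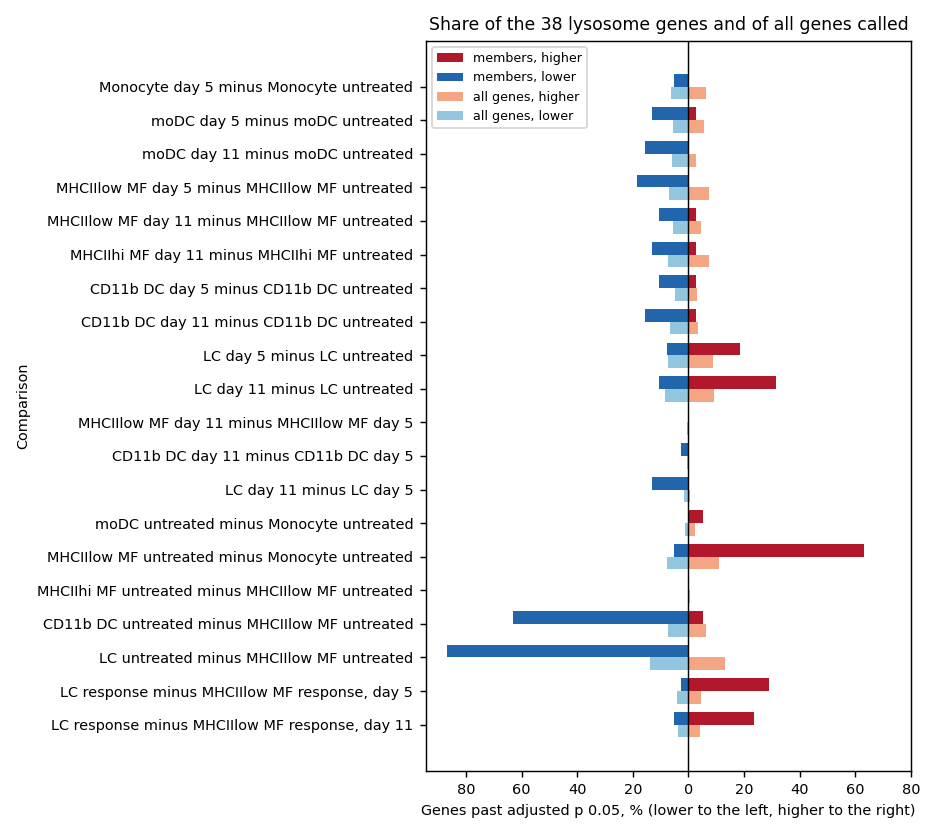
Share of the 38 lysosome genes (dark bars) and of all 15591 genes tested (light bars) past a limma adjusted p of 0.05, in % (horizontal axis; lower to the left in blue, higher to the right in red), in each of the 20 comparisons (vertical axis). The longest bars belong to members lower in untreated Langerhans cells (33 of 38) and CD11b DC (24) and higher in MHCIIlow macrophages (24), and in Langerhans cells against untreated cells 7 of 38 members at day 5 and 12 at day 11 lie to the right, beside 8.64% and 9.31% of all genes.

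Tfeb, the transcription factor of the set, was called in none of the 20 comparisons (limma), like Glb1 and Smpd1. Its 16 group means ran from 6.12 in MHCIIlow macrophages at day 5 to 6.76 in MHCIIhi macrophages at day 11. Single arrays ran from 5.68 to 7.09, with the lowest and the highest both untreated (MHCIIhi macrophages and monocytes). Transcript level does not measure the activity of this factor, which is set by its movement into the nucleus.

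A further 64 lysosome genes outside the members were listed, of which 54 had a single-symbol probe set and were tested. In untreated Langerhans cells 29 of 54 (53.7%, against 13.7% of all genes) were lower and 5 (9.26%, against 13.2%) higher than in MHCIIlow macrophages. In untreated CD11b DC 23 (42.6%, against 7.37%) were lower and 4 (7.41%, against 6.22%) higher, and in untreated MHCIIlow macrophages 23 (42.6%, against 10.9%) were higher and 5 (9.26%, against 7.78%) lower than in monocytes. Tfec, a relative of Tfeb, was lower in Langerhans cells by -4.54 ± 0.39 and in CD11b DC by -4.35 ± 0.39, and higher in MHCIIlow macrophages than in monocytes by 2.17 ± 0.39. Under imiquimod, 8 rose (14.8%, against 8.64% of all genes) and 4 fell (7.41%, against 7.49%) in Langerhans cells at day 5, and 13 rose (24.1%, against 9.31%) and 4 fell (7.41%, against 8.4%) at day 11, with Galns (1.32 ± 0.33) and Dpp7 (1.19 ± 0.33) leading at day 5 and Naglu (1.71 ± 0.44) and Manba (1.29 ± 0.25) at day 11.

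In the dermal populations 2 to 8 of the 54 rose (3.70% to 14.8%, against 2.58% to 7.45% of all genes) and 3 to 8 fell (5.56% to 14.8%, against 4.96% to 7.49%), so several of these shares lay near that of all genes. Acp5, the tartrate-resistant acid phosphatase, rose in each of the 8 dermal comparisons, by 1.34 ± 0.33 in monocytes and up to 2.90 ± 0.33 in MHCIIlow macrophages at day 11, and fell in Langerhans cells (-1.26 ± 0.33 at day 5, -1.02 ± 0.33 at day 11). The test of that difference against MHCIIlow macrophages gave -3.50 ± 0.47 at day 5 (adjusted p = 1.09e-06) and -3.91 ± 0.47 at day 11 (adjusted p = 1.53e-07). Arsb, arylsulfatase B, fell in moDC (-1.88 ± 0.28 at day 5), MHCIIlow macrophages (-2.25 ± 0.28 at day 11), MHCIIhi macrophages (-2.07 ± 0.28) and CD11b DC (-1.62 ± 0.28 at day 5). Cst7, an inhibitor of cysteine cathepsins, rose in CD11b DC by 3.63 ± 0.55 at day 5 and in moDC by 2.58 ± 0.55 at day 5 and 2.61 ± 0.55 at day 11. limma called 0 genes of this list between day 11 and day 5 in MHCIIlow macrophages, CD11b DC and Langerhans cells, where 5, 3 and 3 were higher and 0, 2 and 2 lower at an unadjusted p under 0.05. Between the untreated macrophage populations it called 0 as well, with 2 higher and 8 lower at that unadjusted p.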

How the data were processed

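Cells were sorted by flow cytometry, and 1 to 20 ng of RNA per sample was amplified and hybridised to Affymetrix mouse gene arrays, per the labels' protocols. The authors deposited log2 values after RMA normalisation, and the submitters' processing notes also name oligo and limma, with versions not given in the sources used here. The labels mention dispase digestion under either of 2 conditions, without saying which of them each sample had. Of 35556 probe sets, 21789 carried 1 gene symbol, 1621 several and 12146 none, from GEO's platform annotation, and no symbol changed when 21698 were checked by gene identifier against RefSeq. A probe set was kept if 3 or more arrays exceeded 3.77, the 40th percentile over the whole table (17017 kept), and the probe set of highest mean stood for a gene (15591 genes). On each array 12677 to 14010 genes lay above that value. All 16 groups entered 1 limma fit (R 4.3.3, limma 3.58.1) without covariates, with eBayes moderation, Benjamini-Hochberg adjustment over all genes and a threshold of 0.05. Values after ± are standard errors of that fit. The fit was tested on simulated data.

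The members, gene lists and marker lists were chosen with earlier results of these data known, and give no independent support to them. Members were named by size of change, up to 6 rises and 6 falls in a comparison, and up to 2 each way for the other lysosome genes. Replicate numbers were read from the titles. Deviations of same-numbered samples correlated at -0.0955 to 0.234, and in no comparison with 3 shared numbers did every pair exceed 0.1, so the numbers were not taken as pairs. Alternatives were quantile normalisation, median-centring, no filter, means of probe sets, a trended robust variance, array weights, the replicate number as a block, 2 arrays left out, only the groups compared, and each replicate left out.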

Additional observations from a re-analysis of the deposited data

Results flagged for a closer look

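The response to imiquimod, as the difference from untreated cells of the same population, was tested for a difference between Langerhans cells and MHCIIlow macrophages with an interaction term in limma, over 3 arrays a group. At day 5 the Langerhans cell response was above that of the macrophages for Lyz1 by 4.42, Lyz2 by 4.22, Lgmn by 1.68, Ctsc by 1.66, Hexa by 1.54, Psap by 1.47, Asah1 by 1.38, Ctsz by 1.28, Ctsa by 0.82, Man2b1 by 0.80 and Lamp2 by 0.61 on the log2 scale. For Ctsl the difference was -1.69. At day 11 it was 2.54 for Lyz2, 2.48 for Lyz1, 1.41 for Hexa, 1.36 for Ctsc, 1.15 for Asah1, 0.98 for Ctsa, 0.97 for Ctsz, 0.81 for Grn and 0.68 for Lamp2. It was -1.96 for Ctsl and -1.47 for Gla. The day 11 call for Asah1 ended without any 1 of most of the arrays compared (adjusted p = 0.0507 to 0.116, limma). Day 5 and day 11 share their untreated arrays. The untreated Langerhans cell levels of Lyz1 and Lyz2 were the lowest of all 16 groups.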

How the results depend on the processing

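No called member changed direction under any alternative. Among counts of called members, 248 stayed within 1.5 times and 49 moved further, and among values of named members 1414 kept their side of the threshold and 194 lost the call. A fit of only the groups compared, with fewer arrays to estimate the spread, gave 0 for monocytes at day 5, 2 and 1 for moDC at day 5 and day 11, 1 for MHCIIhi macrophages, 3 and 1 for CD11b DC at day 5 and day 11, 1, 0 and 0 for day 11 against day 5 in MHCIIlow macrophages, CD11b DC and Langerhans cells, 0 for moDC against monocytes and 16 for MHCIIlow macrophages against monocytes. Array weights gave 0 for monocytes at day 5, 16 for Langerhans cells at day 5, 3 for MHCIIlow macrophages between the days and 1 between the untreated macrophages, where quantile normalisation also gave 1. Median-centring gave 1 for monocytes at day 5 and 2 for MHCIIhi macrophages. Leaving out both arrays that stood apart (untreated monocyte replicate 2 and day 11 CD11b DC replicate 2) gave 4 for CD11b DC at day 11. For monocytes at day 5 it gave 1 rise and 0 falls, so neither reported fall stayed called. Counts over all genes moved as well. In the fit of only the groups compared they went from 1002 higher and 984 lower to 119 and 158 for monocytes at day 5. For CD11b DC at day 11 they went from 553 and 1059 to 46 and 122. Array weights took them from 1347 and 1167 to 1823 and 1508 for Langerhans cells at day 5. Median-centring took them from 1162 and 1168 to 1399 and 933 for MHCIIhi macrophages. The cause was not tested. With the replicate number as a block, CD11b DC had 2 called members between the days, and other counts stayed within 1.5 times.

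Leaving out 1 replicate in turn gave 0 to 5 called members for monocytes, 2 to 4 and 2 to 7 for moDC at day 5 and day 11, 4 to 7 and 4 to 5 for MHCIIlow macrophages, 2 to 5 for MHCIIhi macrophages, 4 to 5 and 4 to 10 for CD11b DC, and 8 to 11 and 11 to 15 for Langerhans cells. Between the days it gave 0 for MHCIIlow macrophages, 0 to 1 for CD11b DC and 3 to 5 for Langerhans cells. In untreated cells it gave 1 to 3 for moDC and 21 to 24 for MHCIIlow macrophages against monocytes, 0 to 1 between the macrophages, and 25 to 27 for CD11b DC and 31 to 33 for Langerhans cells against MHCIIlow macrophages. The response differences gave 11 to 12 and 7 to 12. Median-centring shifted an array's median over all genes by up to 0.16 and quantile normalisation by up to 0.09. The share of higher calls over all genes moved from 50.5% to 64.1% (quantile) and 66.8% (centring) for monocytes, from 50.3% to 60.7% and 65.8% for moDC at day 5, and under quantile normalisation from 30.7% to 40.9% for moDC at day 11. Centring moved it from 49.9% to 60.0% for MHCIIhi macrophages, from 37.8% to 27.5% and from 34.3% to 22.0% for CD11b DC, and from 58.4% to 73.9% for MHCIIlow macrophages against monocytes. The number of arrays limits how small a difference could be called.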
